A study of Mus musculus with 8 samples.

Results

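Chromatin accessibility was described at 7 gene loci of the myeloid lineage in hematopoietic stem cells (HSCs) from old and young mice. The loci were Spi1, Cebpa, Gfi1, Irf8, Mpo, Csf1r and Cd33, each taken as a fixed window of the mm9 genome. Every deposited peak lying fully inside a window was a member, which gave 73 peaks of the 126871 in the table. Of these, 50 passed the filter on low counts, as did 73164 peaks in all. The measurement was bulk ATAC-seq, in which a transposase cuts open chromatin and inserts sequencing adapters, so that the read count of a peak follows how open it is. There were 4 libraries of old HSCs and 4 of young HSCs, all from bone marrow of C57BL/6 mice and sorted as LSK CD150+ CD48- cells. LSK cells lack lineage markers and carry Sca-1 and Kit, and the SLAM-family markers CD150 and CD48 narrow them to a population rich in HSCs. Age in weeks and sex are not stated in the labels used here, nor is it stated whether libraries came from separate animals, so p-values measure the spread between libraries, which may be technical.

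Myeloid cells (granulocytes, monocytes, macrophages and dendritic cells) arise from HSCs through progenitors in which a small set of transcription factors is switched on in steps. Spi1 encodes PU.1, an ETS-family factor needed for myeloid and B cell development, and Cebpa encodes C/EBPα, needed to form granulocyte and monocyte progenitors. Gfi1 is a zinc-finger repressor that favours neutrophil formation and restrains HSC proliferation, and Irf8 directs monocyte and dendritic cell fates against neutrophils. Mpo encodes myeloperoxidase, an enzyme of neutrophil granules, Csf1r the receptor for macrophage colony-stimulating factor, and Cd33 a sialic acid-binding receptor of myeloid cells. HSCs of aged mice are known for giving rise to more myeloid relative to lymphoid cells. A locus of a lineage gene can be open in stem cells before the gene is strongly expressed, and its accessible sites can be promoters or distant enhancers.

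RefSeq promoter sequences of the GRCm38.p6 build, matched by symbol, were used for 5 of the 7 genes. Absence of the other genes from this set does not show that RefSeq lacks promoters for them. The 250 bases before the annotated start are shown for 4 of them, a pair of transcription factor genes and a pair of genes whose loci had low levels in old HSCs, as examples of promoters that differ in base composition. They are chr7:35119043-35119292 on the plus strand for Cebpa, chr8:120736108-120736357 on the plus strand for Irf8 (the first of its listed starts), chr11:87793534-87793783 on the plus strand for Mpo and chr7:43533172-43533421 on the minus strand for Cd33. Because these positions are of another build than the peaks, no peak was assigned to them. Capitals mark matches, on either strand, to GAGGAA (the purine box of PU.1 and other ETS factors), TTGCNNAA (C/EBP), TGTGGT (RUNX) or TATAAA (the core promoter box of that name).
Cebpa: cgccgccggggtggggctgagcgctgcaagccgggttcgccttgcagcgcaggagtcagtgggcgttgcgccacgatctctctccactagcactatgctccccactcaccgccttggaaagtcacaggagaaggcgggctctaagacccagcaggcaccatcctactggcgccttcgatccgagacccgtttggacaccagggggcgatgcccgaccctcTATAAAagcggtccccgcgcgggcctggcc
Irf8: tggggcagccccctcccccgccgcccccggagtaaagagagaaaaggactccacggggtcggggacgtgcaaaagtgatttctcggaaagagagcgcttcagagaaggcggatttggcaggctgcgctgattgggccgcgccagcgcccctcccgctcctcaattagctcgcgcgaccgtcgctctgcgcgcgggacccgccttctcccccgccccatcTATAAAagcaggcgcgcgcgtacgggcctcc
Mpo: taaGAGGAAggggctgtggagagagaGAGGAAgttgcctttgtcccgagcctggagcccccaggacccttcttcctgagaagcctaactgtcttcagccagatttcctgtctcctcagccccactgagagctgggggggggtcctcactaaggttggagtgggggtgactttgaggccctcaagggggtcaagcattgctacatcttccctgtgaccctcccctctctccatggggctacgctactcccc
Cd33: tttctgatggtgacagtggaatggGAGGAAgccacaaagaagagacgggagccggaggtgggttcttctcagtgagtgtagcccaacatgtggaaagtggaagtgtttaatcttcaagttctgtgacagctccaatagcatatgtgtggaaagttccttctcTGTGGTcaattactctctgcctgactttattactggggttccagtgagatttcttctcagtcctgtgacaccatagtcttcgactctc
Guanine and cytosine made up 66.4% of the Cebpa and 67.2% of the Irf8 sequence, against 59.2% at Mpo and 46.8% at Cd33, and the CpG dinucleotides numbered 22, 29, 2 and 3. This does not divide the roles: the starts not shown had 59.2% and 57.6% at Gfi1, another transcription factor gene, with 13 and 9 CpG, and 54.0% with 8 CpG at the second start of Irf8. Cebpa and Irf8 each held TATAAA, Mpo held 2 copies of GAGGAA, and Cd33 held 1 GAGGAA and 1 TGTGGT. Among all 32851 RefSeq promoter stretches of 250 bases, GAGGAA was found in 23.3%, TTGCNNAA in 9.56%, TGTGGT in 14.0% and TATAAA in 12.4%. A match is only a run of letters and does not show that a factor binds there.

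The members, with the mouse gene IDs, spanned chr2:90901264-90955551 at Spi1 (20375), chr7:35851655-36000799 at Cebpa (12606) and chr5:108127477-108155485 at Gfi1 (14581). They spanned chr8:123238836-123348912 at Irf8 (15900) and chr11:87603594-87622117 at Mpo (17523). Those of Csf1r (12978) spanned chr18:61258695-61292032, and the one of Cd33 (12489) was chr7:50788261-50789032. The windows around them were 60 kb wide at Spi1, 170 at Cebpa, 55 at Gfi1, 120 at Irf8, 45 at Csf1r and 30 at Mpo and Cd33. The number of member peaks was 14 at Spi1, 19 at Cebpa, 7 at Gfi1, 21 at Irf8, 5 at Mpo, 6 at Csf1r and 1 at Cd33. Gene models and sequence of the mm9 build were not used here, so a peak could not be placed on a promoter, exon, intron or known enhancer. In the RefSeq gene table the neighbouring coding genes include Slc39a13 and Mybpc3 beside Spi1, Cebpg near Cebpa, Rpap2 and Evi5 beside Gfi1, and Cox4i1 and Foxf1 beside Irf8. They also include Tspoap1 and Lpo beside Mpo, Pdgfrb and Hmgxb3 beside Csf1r, and Gm2511 and Zfp658 beside Cd33. A member peak may therefore belong to a neighbour.

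Total counts ran from 4200905 to 5129684 in old and from 4229913 to 4992173 in young libraries, so that 1 count was worth 0.207 to 0.255 CPM (counts scaled to a common library size with TMM). Member peaks held 0.0651% to 0.0664% of the counts in old and 0.0678% to 0.0721% in young libraries. Old replicate 4 stood apart from its group: its correlations averaged 0.919 with its own group and 0.907 with young libraries, while old replicates 1 to 3 averaged 0.941 to 0.944 with their own group and 0.842 to 0.857 with young libraries. Results that it touches are therefore also given without it. Other cell types in the gate were not analysed, since their marker genes could not be placed in mm9. In bulk samples, fewer cells with an open site and a less open site in each cell cannot be told apart.

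Across the 50 tested member peaks, 4 had higher and 6 had lower counts in old HSCs (edgeR's quasi-likelihood test over all tested peaks, Benjamini-Hochberg adjusted p below 0.05). That is 20% of them, where 20.5% of all tested peaks were called, 10% higher and 10.4% lower. The share called at these loci was thus at the genome's background. The median log2 fold change, old minus young, was -0.10 over the tested members and 0.01 over all tested peaks. Old libraries lay wholly above young ones at 3 tested members and wholly below at 5, in a table where 21.1% of tested peaks had groups that did not overlap. Without old replicate 4, 6 members were higher and 8 lower, or 28%, against 28.9% of all tested peaks. The counts also moved with other single libraries, as the share of all peaks did. Without old replicate 2 there were 2 higher and 3 lower, 10% of members against 13.6% of all tested peaks. Without old replicate 3 there were 1 higher and 4 lower, again 10%, against 13.7%. Leaving out young replicate 3 gave 2 higher and 5 lower, or 14% against 15.9%. Leaving out young replicate 4 gave 5 higher and 3 lower, or 16% against 14.99%.

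**Figure D1:**
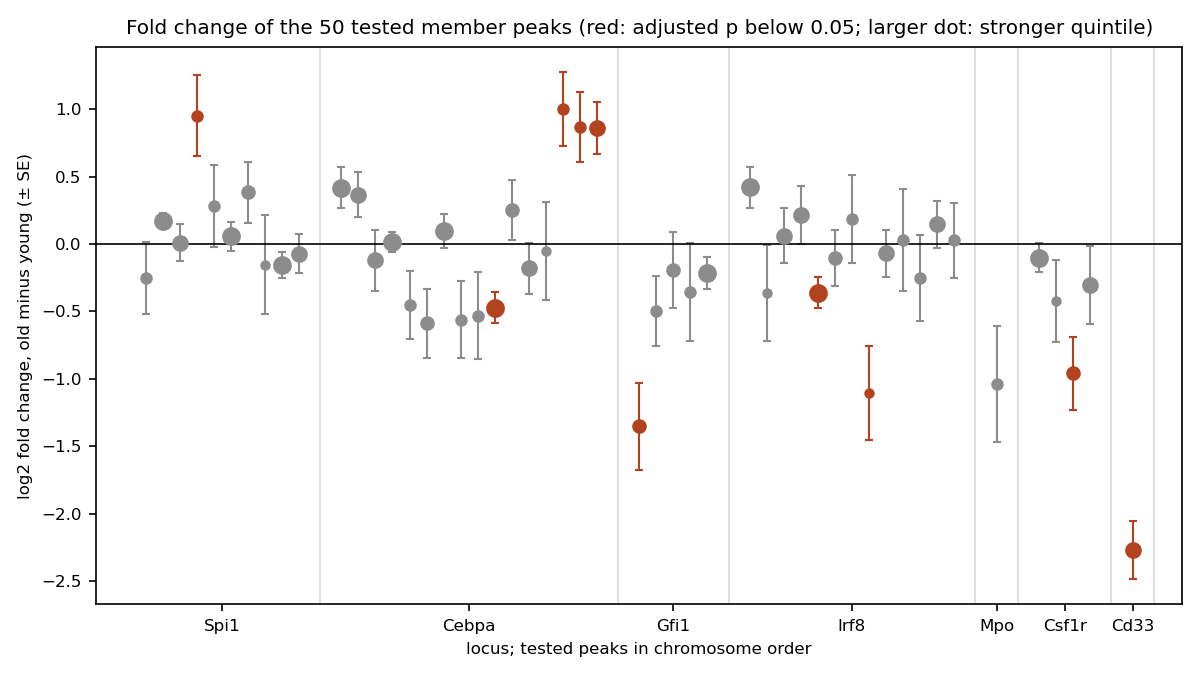
Log2 fold change (old minus young, vertical axis, bars ± SE) of the 50 tested member peaks, in chromosome order within each locus; red marks the 10 with an adjusted p below 0.05 and larger dots are peaks of a stronger quintile by mean CPM. The called higher peaks lie in the Spi1 and Cebpa windows, and every tested peak of Gfi1, Mpo, Csf1r and Cd33 lies below 0.

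By mean CPM over the 8 libraries, the strongest peak of a locus was called in 1 of the 7 windows. The called one, at Cd33, was the only peak in its window, and the other 6 were not called. Of the 7 strongest peaks, 5 were in the top quintile of all tested peaks. In that quintile 22.2% were called (edgeR), 14.3% higher and 7.87% lower, with a median log2 fold change of 0.06. At the 4 transcription factor loci 4 of 44 tested peaks were higher and 4 lower, with a median log2 fold change of -0.06. At Mpo, Csf1r and Cd33, which encode an enzyme and 2 surface receptors, all 6 tested peaks had a log2 fold change below 0, with a median of -0.69, and 2 of them were called (edgeR). Of these 6 peaks, 4 lay in the Csf1r window. Across all tested peaks 20.5% were called (edgeR), and the median log2 fold change was 0.01. The difference between the transcription factor loci and the other loci was not tested.

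The summed level of each locus was compared as well. Each sum was tested in 1 edgeR fit together with windows of 100000 bases across the genome, of which 29% were called, 15.2% higher and 13.8% lower. The Gfi1 and Cd33 sums were lower in old HSCs, and those of Spi1, Cebpa, Irf8, Mpo and Csf1r did not pass. The share called among the locus sums was thus near this background. Per kilobase of peak, the mean level in old HSCs was 38.1 ± 1.97 CPM at Spi1, 15.8 ± 0.253 at Cebpa, 14.5 ± 2.01 at Csf1r and 11.2 ± 0.222 at Irf8 (SD, n = 4). It was 8.63 ± 0.571 at Gfi1, 5.86 ± 2.06 at Cd33 and 2.81 ± 2.50 at Mpo. In young HSCs Cd33 came second, at 28.7 ± 5.48 CPM per kilobase, behind Spi1 at 35.8 ± 2.02. After it came Csf1r at 17.5 ± 2.12, Cebpa at 15.4 ± 0.552, Gfi1 at 11.7 ± 0.538, Irf8 at 11.5 ± 0.456 and Mpo at 7.05 ± 1.75. Cebpa and Csf1r in old libraries, and Cebpa with Csf1r and Gfi1 with Irf8 in young ones, lay within 1 SD of each other. This order is per base of peak, and Cd33 had only 1 peak, of 771 bases. By summed level in young HSCs, Cd33 at 22.2 CPM was above Mpo (11.1 CPM) and below every other locus.

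**Figure D2:**
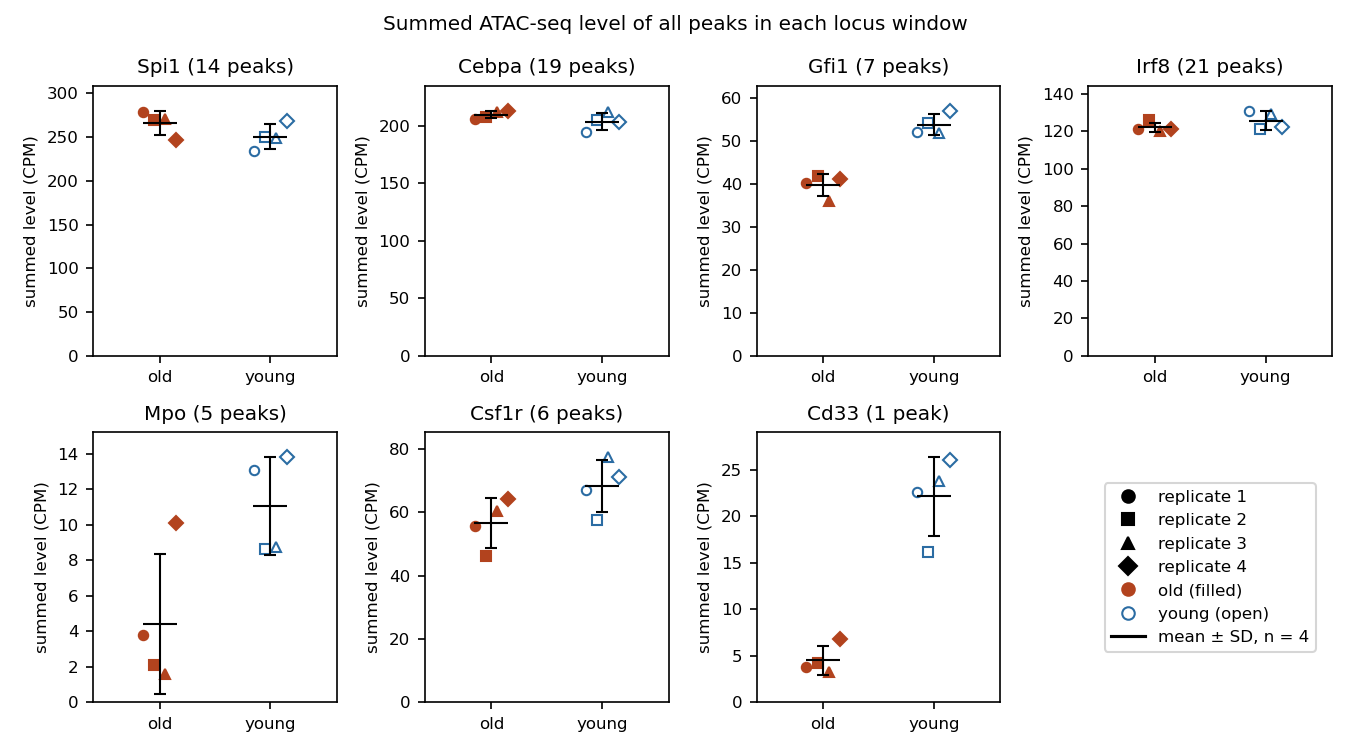
Summed CPM of all member peaks (vertical axes, each from 0) at the 7 loci, old libraries left and young libraries right, with a symbol per replicate and bars for mean ± SD (n = 4). Old and young libraries do not overlap at Gfi1 and Cd33; at Mpo old replicate 4 lies within the young range.

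Spi1 was the most open of the 7 loci per base, and its sum did not pass the test between old and young HSCs. Old replicates 1 to 4 had 279, 269, 271 and 247 CPM over the window, against 234, 250, 249 and 268 CPM in young replicates 1 to 4. The ranges overlap, with old replicate 4 among the young values. The log2 fold change of the sum was 0.06 ± 0.05 (SE; edgeR adjusted p = 0.362), and 0.09 without old replicate 4 (edgeR adjusted p = 0.144). Its strongest peak, chr2:90909580-90911080, held 49.8% of the locus counts in old HSCs, against 47.1% in young HSCs. That peak had 144, 132, 135 and 120 CPM in old HSCs and 114, 121, 112 and 125 CPM in young HSCs, a log2 fold change of 0.17 ± 0.06 that did not pass (edgeR adjusted p = 0.0557). It passed without old replicate 4 (log2 fold change 0.21, edgeR adjusted p = 0.00716), without young replicate 4 (edgeR adjusted p = 0.0432) and with no count filter (edgeR adjusted p = 0.0315). It did not pass with any other library left out or with DESeq2's test (adjusted p = 0.116). Nor did it pass when scaled by total counts (edgeR adjusted p = 0.106) or by loess (log2 fold change 0.08, edgeR adjusted p = 0.373).

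The single called Spi1 peak was small and lay 10.8 kb to the right of the strongest one. Chr2:90921051-90921274, only 223 bases wide, had 4.58, 8.41, 6.23 and 3.51 CPM in old libraries, against 2.10, 3.37, 3.0 and 3.23 CPM in young ones. Every old library was above every young one, by little in old replicate 4. The peak rose by 0.95 ± 0.30 on the log2 scale (edgeR adjusted p = 0.0277), on 102 counts in old and 52 in young libraries. The call was lost without old replicate 2 (edgeR adjusted p = 0.156), old replicate 3 (0.0750), young replicate 1 (0.0900) or young replicate 3 (0.0558), and with DESeq2's test (0.0811) or limma voom (0.0537). Among the other tested Spi1 peaks, the second strongest, chr2:90923009-90923468, averaged 43.7 ± 4.56 CPM in old HSCs and 41.9 ± 6.51 CPM in young HSCs (SD, n = 4 each). The third, chr2:90936484-90937819, averaged 30.6 ± 1.88 CPM in old HSCs and 34.2 ± 2.60 CPM in young HSCs, with edgeR adjusted p of 0.764 and 0.279 for these 2 peaks.

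Cebpa had 4 called peaks among its 16 tested ones, the most tested of any locus, where 20.5% of all tested peaks were called; its sum did not pass. The window held 206, 207, 212 and 213 CPM in old HSCs and 194, 205, 212 and 203 CPM in young HSCs. Its log2 fold change came to 0.02 ± 0.04 (SE; edgeR adjusted p = 0.784), 0.00 without old replicate 4 and -0.01 without young replicate 1, so its sign was not fixed. The strongest peak, chr7:35903043-35904959, averaged 55.3 ± 3.08 CPM in old HSCs and 54.8 ± 3.78 CPM in young HSCs (SD, n = 4 each; edgeR adjusted p = 0.931). Of the 16 tested Cebpa peaks 3 were higher, 1 was lower and 12 were not called.

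The third strongest Cebpa peak, chr7:35865611-35866603, missed the threshold. It had 23.7, 26.3, 22.6 and 28.7 CPM in old HSCs, against 17.5, 25.5, 14.3 and 18.3 CPM in young HSCs. Only young replicate 2 reached the old range. Its log2 fold change was 0.42 ± 0.15 with edgeR adjusted p = 0.0523, and 0.60 without young replicate 2 (edgeR adjusted p = 0.00559). It also passed with limma voom (adjusted p = 0.0449) and with no count filter (edgeR adjusted p = 0.0306). It did not pass with DESeq2's test (adjusted p = 0.101), total counts (edgeR adjusted p = 0.0731) or loess scaling (edgeR adjusted p = 0.0707). Nor did it pass without old replicate 1 (edgeR adjusted p = 0.0801) or old replicate 2 (edgeR adjusted p = 0.124). At the untested chr7:35931323-35931540, old libraries had 6, 6, 11 and 6 counts and young ones 1, 2, 3 and 4, which do not overlap.

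The lower Cebpa peak was the second strongest of the locus. Chr7:35941272-35942116, 37.7 kb to the right of the strongest peak, had 20.9, 21.9, 22.8 and 28.1 CPM in old libraries, against 32.4, 30.3, 34.3 and 33.6 CPM in young ones. All old libraries were below all young ones, and old replicate 4 was the nearest to them. It fell by 0.47 on the log2 scale (SE 0.11; edgeR adjusted p = 0.00494), by 0.57 without old replicate 4, and was called with each library left out in turn.

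The higher Cebpa peaks lay in the right part of the window. Chr7:35999597-36000799 had 10.4, 11.6, 15.2 and 11 CPM in old HSCs and 6.30, 6.94, 7.75 and 5.60 CPM in young HSCs, and the groups do not overlap. It rose by 0.86 ± 0.19 on the log2 scale (SE; edgeR adjusted p = 0.00357), by 0.90 without old replicate 4, and was called with each library left out. To its left lay a pair of peaks only 43 bases apart. Chr7:35970021-35970702 had 5.86, 4.84, 6.69 and 4.13 CPM in old HSCs and 3.03, 2.10, 3.0 and 2.59 CPM in young HSCs, which do not overlap. Its neighbour chr7:35970745-35971742 had 6.62, 7.36, 7.15 and 4.13 CPM in old HSCs and 3.26, 3.37, 2.75 and 4.31 CPM in young HSCs, where old replicate 4 lay within the young range. These 2 peaks rose by 0.997 ± 0.27 and 0.87 ± 0.26 on the log2 scale (edgeR adjusted p = 0.0132 and 0.0225), or by 1.11 and 1.03 without old replicate 4. The first call was lost without old replicate 3 (edgeR adjusted p = 0.0575), and both with DESeq2's test (0.0561 and 0.0766). The second was lost without old replicate 1 (0.0577), 2 (0.0822) or 3 (0.0709) and without young replicate 1 (0.0568) or 3 (0.0662). The 8 tested peaks within 100 kb outside the window had a median log2 fold change of 0.29. Of them 1 was called, and higher (edgeR), where 20.5% of all tested peaks were called.

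**Figure D3:**
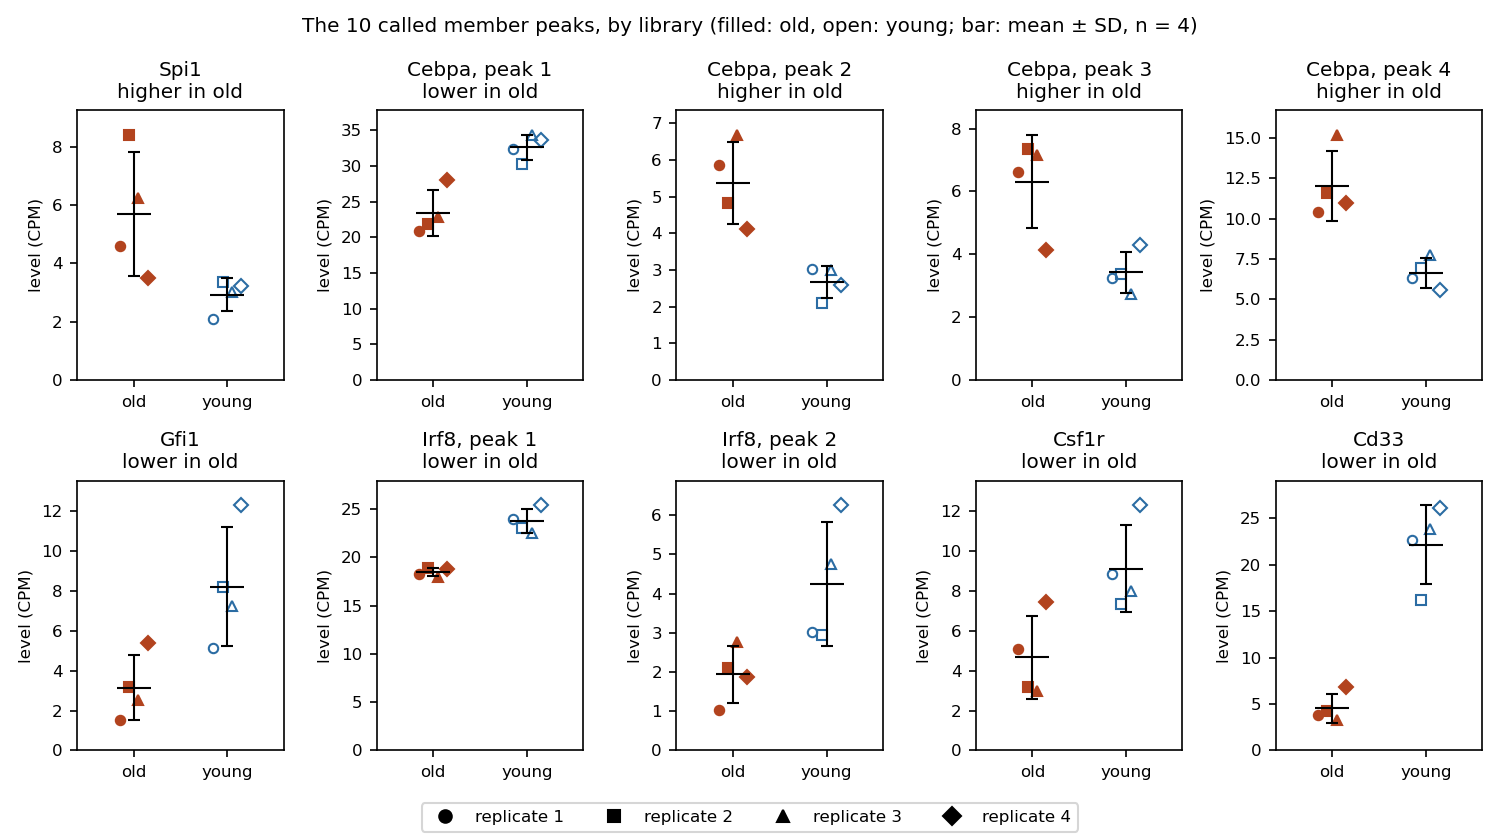
CPM (vertical axes, each from 0) at the 10 called member peaks, old libraries left and young libraries right, with a symbol per replicate and bars for mean ± SD (n = 4); peaks of a locus are numbered from left to right on the chromosome. The groups overlap at the third Cebpa peak and at the Gfi1 and Csf1r peaks, each time through old replicate 4.

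Gfi1 was lower in old HSCs as a whole. The window held 40.2, 41.9, 36.0 and 41.1 CPM in old HSCs and 52.0, 54.3, 51.8 and 57.1 CPM in young HSCs. All old libraries, replicate 4 included, lay below all young ones. The sum fell by 0.46 on the log2 scale (SE 0.09; edgeR adjusted p = 0.000873), to 0.740 of the young mean, and by 0.49 without old replicate 4. It was called with each library left out. All 7 peaks had a lower mean in old libraries.

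Most of the difference lay outside the strongest peak. Chr5:108153340-108155485 had 24.9, 26.9, 19.8 and 22.1 CPM in old HSCs and 26.1, 29.7, 25.5 and 27.6 CPM in young HSCs, a log2 fold change of -0.22 ± 0.12 that did not pass (edgeR adjusted p = 0.209). It made up 58.8 ± 5.15% of the locus counts in old HSCs, against 50.6 ± 2.80% in young HSCs (SD, n = 4 each). The 1 called peak, chr5:108127477-108128487, lay 26.4 kb to its left. It had 1.53, 3.16, 2.54 and 5.37 CPM in old libraries, against 5.13, 8.21, 7.25 and 12.3 CPM in young ones, and only old replicate 4 reached the young range. It fell by 1.35 on the log2 scale (SE 0.32; edgeR adjusted p = 0.00642), by 1.74 without old replicate 4, and was called with each library left out. A weaker peak, chr5:108137040-108137501, had 3.06, 3.16 and 3.46 CPM in old replicates 1 to 3 but 5.58 CPM in old replicate 4, against 5.05 to 6.00 CPM in young libraries. Its log2 fold change of -0.50 ± 0.26 did not pass (edgeR adjusted p = 0.185), and was -0.75 without old replicate 4 (edgeR adjusted p = 0.0373). The 7 tested peaks within 100 kb outside the window had a median log2 fold change of -0.09.

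Irf8 had the most member peaks, and its sum did not pass. Of its 13 tested peaks 2 were called, both lower in old HSCs. Among all tested peaks 20.5% were called, 10.4% of them all being lower. The window held 121, 126, 120 and 121 CPM in old HSCs and 131, 121, 129 and 122 CPM in young HSCs, which overlap. The log2 fold change of the sum was -0.07 ± 0.05 (SE; edgeR adjusted p = 0.367), and -0.07 without old replicate 4. Chr8:123275664-123276729 had 18.3, 18.9, 18.0 and 18.8 CPM in old HSCs and 24.0, 23.1, 22.5 and 25.4 CPM in young HSCs, 2 tight groups that do not overlap. It fell by 0.36 on the log2 scale (SE 0.12; edgeR adjusted p = 0.0332), and by 0.37 without old replicate 4. The call was lost without old replicate 1 (edgeR adjusted p = 0.0718), 2 (0.0668) or 3 (0.0796), without young replicate 1 (0.0641) or 4 (0.0944), with DESeq2's test (0.111) and with no count filter (0.0635).

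The other lower Irf8 peak was weak. Chr8:123316586-123317025 had 1.02, 2.10, 2.77 and 1.86 CPM in old HSCs and 3.03, 2.95, 4.75 and 6.25 CPM in young HSCs, from 35 and 75 counts in all. It fell by 1.11 on the log2 scale (SE 0.35; edgeR adjusted p = 0.0284), and by 1.08 without old replicate 4. The call was lost without old replicate 1 (edgeR adjusted p = 0.0961) or 2 (0.0599), without young replicate 3 (0.0679) or 4 (0.132), and with DESeq2's test (0.0825) or limma voom (0.0533).

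The strongest Irf8 peak pointed the other way. Chr8:123238836-123239707, at the left end of the window, had 25.7, 27.6, 26.3 and 20.5 CPM in old HSCs and 23.8, 16.4, 20.8 and 14.0 CPM in young HSCs. The groups overlap through old replicate 4, which lay below young replicates 1 and 3. Its log2 fold change of 0.42 ± 0.15 did not pass (edgeR adjusted p = 0.0537), but did without old replicate 4 (0.51, edgeR adjusted p = 0.00783) and without young replicate 1 (0.55, edgeR adjusted p = 0.0218). It also passed with limma voom (adjusted p = 0.0482) and with no count filter (edgeR adjusted p = 0.0340). It did not pass with any other library left out or with DESeq2's test (adjusted p = 0.105). Nor did it pass when scaled by total counts (edgeR adjusted p = 0.0713) or by loess (edgeR adjusted p = 0.0736). It held 20.5 ± 2.38% of the locus counts in old HSCs, against 14.8 ± 2.91% in young HSCs (SD, n = 4 each).

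**Figure D4:**
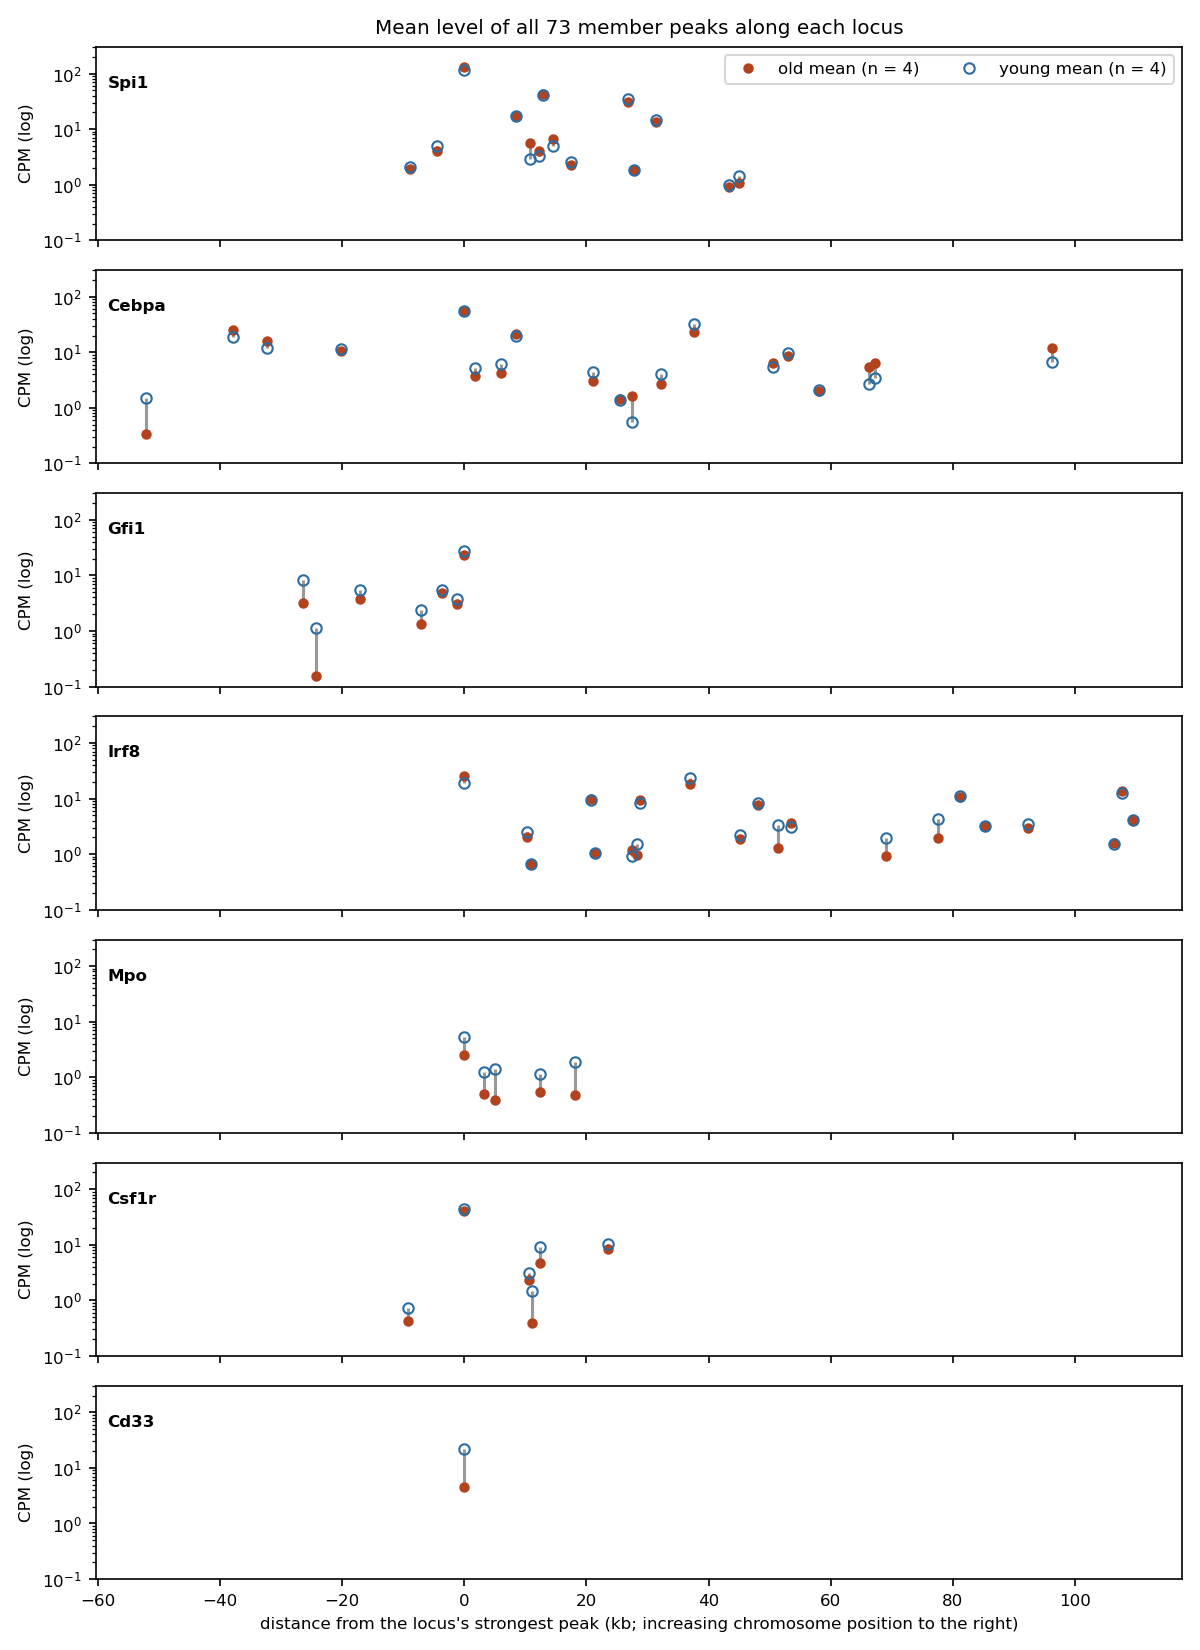
Mean CPM (log axis) of all 73 member peaks in old and young libraries (n = 4 each), tested or not, against the distance in kb from the strongest peak of the locus. At Spi1, Cebpa and Irf8 old means lie on both sides of young means, while at Gfi1, Mpo, Csf1r and Cd33 every old mean lies below the young one.

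Cd33 held the tested member with the lowest log2 fold change, and it was the only peak in its window. Chr7:50788261-50789032 had 3.82, 4.21, 3.23 and 6.82 CPM in old HSCs and 22.6, 16.2, 23.8 and 26.1 CPM in young HSCs, from 82 and 390 counts in all. Old replicate 4 was the highest old library and still far below the lowest young one. The old mean was 0.204 of the young mean. On the log2 scale the peak fell by 2.27 (SE 0.21; edgeR adjusted p = 8.21e-07), with a log2 fold change of -2.55 without old replicate 4. Of the 15 tested peaks within 100 kb outside the window, 1 was higher and 4 were lower (edgeR). Their median log2 fold change was -0.20. Among all tested peaks, 10% were called higher and 10.4% lower.

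Mpo was close to closed in old replicates 1 to 3. The window held 3.82, 2.10, 1.61 and 10.1 CPM in old HSCs and 13.1, 8.63, 8.75 and 13.8 CPM in young HSCs, from 15, 10, 7 and 49 counts against 56, 41, 35 and 64. Old replicate 4 lay within the young range, and the other old libraries below it. The log2 fold change of the sum was -1.32 ± 0.46 (SE) and did not pass (edgeR adjusted p = 0.0514). Without old replicate 4 it was -2.19 ± 0.31 (edgeR adjusted p = 9.14e-06), the largest shift of any locus sum when a library was left out.

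All 5 Mpo peaks had a lower mean in old libraries, but 4 of them were under the count filter. The 1 tested peak, chr11:87603594-87604014, had 2.29, 1.26, 1.15 and 5.37 CPM in old HSCs and 6.30, 2.53, 5.75 and 6.68 CPM in young HSCs. Its log2 fold change of -1.04 ± 0.43 did not pass (edgeR adjusted p = 0.103). It did without old replicate 4 (-1.76, edgeR adjusted p = 0.000724) and without young replicate 2 (-1.28, edgeR adjusted p = 0.0301). At the untested chr11:87621849-87622117 the old libraries had 1, 0, 0 and 8 counts and the young ones 8, 8, 7 and 11. A count of 0 allows up to 3 counts, here 0.631 CPM in old replicate 2 and 0.692 CPM in old replicate 3, for counting error only. A peak that crosses the right edge of the window, chr11:87624933-87625390, was not a member. It had 9, 5, 5 and 19 counts in old and 40, 35, 62 and 54 counts in young libraries. Counted in, the sum passed, with a log2 fold change of -1.75 ± 0.43 (edgeR adjusted p = 0.0136).

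Csf1r had 1 lower peak in old HSCs, beside a far stronger one that did not pass. The window held 55.8, 46.1, 60.4 and 64.3 CPM in old HSCs and 67.2, 57.7, 77.5 and 71.1 CPM in young HSCs, which overlap. The log2 fold change of the sum was -0.29 ± 0.11 (SE) and did not pass (edgeR adjusted p = 0.0519). It passed without old replicate 4 (-0.37, edgeR adjusted p = 0.00849) and without young replicate 2 (-0.38, edgeR adjusted p = 0.0135). The strongest peak, chr18:61267214-61268785, averaged 40.4 ± 6.03 CPM in old HSCs and 43.4 ± 4.67 CPM in young HSCs (SD, n = 4 each; edgeR adjusted p = 0.553). Its share of the locus counts was 71.3 ± 3.68% in old HSCs and 63.5 ± 1.47% in young HSCs.

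The lower Csf1r peak, chr18:61280206-61280596, lay 12.4 kb to the right of the strongest one. It had 5.09, 3.16, 3.0 and 7.44 CPM in old HSCs and 8.86, 7.37, 8.0 and 12.3 CPM in young HSCs, and only old replicate 4 reached the young range. It fell by 0.96 on the log2 scale (SE 0.27; edgeR adjusted p = 0.0154), with a log2 fold change of -1.30 without old replicate 4. The call was lost without old replicate 2 (edgeR adjusted p = 0.0656), old replicate 3 (0.0626) or young replicate 4 (0.0710). At the weaker chr18:61278318-61278700 the old libraries had 2.04, 2.73, 2.31 and 2.27 CPM, just below 2.80, 3.58, 2.75 and 3.45 CPM in young ones. It did not pass although the groups do not overlap (log2 fold change -0.42, edgeR adjusted p = 0.350). All 6 Csf1r peaks had a lower mean in old libraries. Of the 17 tested peaks within 100 kb outside the window, 3 were higher and 1 was lower (edgeR). Their median log2 fold change was -0.07. Among all tested peaks, 10% were called higher and 10.4% lower.

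**Figure D5:**
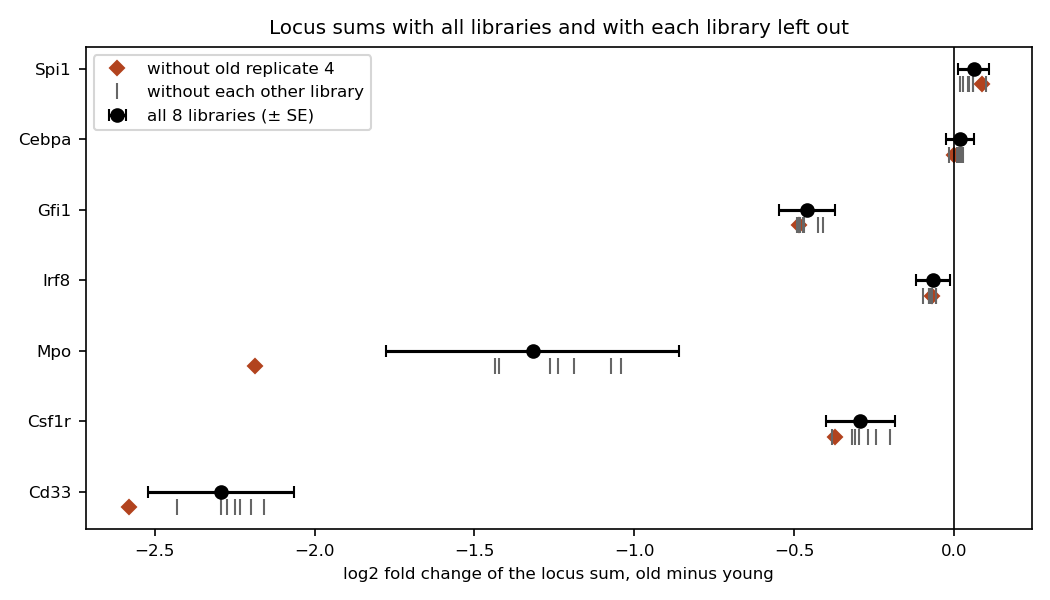
Log2 fold change of each locus sum (old minus young, horizontal axis) with all 8 libraries (dots, ± SE), without old replicate 4 (diamonds) and without each other library (ticks). Leaving out old replicate 4 moves Mpo to -2.19 and Cd33 to -2.58; the other loci stay within 0.10 of their value.

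In median width and CPM, which did not enter the choice of windows, the tested members were much like all tested peaks. Tested members had a median width of 606 bases, against 620 for all tested peaks, and a median level of 6.44 CPM, against 6.45. Per kilobase their median level was higher, at 15.5 CPM, against 11.7 for all tested peaks. The 23 untested members had 21 to 81 counts over all 8 libraries. Among them 1 had all old libraries above all young ones, at Cebpa, and 5 had all old libraries below. Among all 53707 untested peaks, 5.28% lay wholly above and 9.06% wholly below, 14.3% together. Outside the windows, within 100 kb, the 12 tested peaks at Spi1 and the 13 at Irf8 had median log2 fold changes of 0.09 and 0.06, and the 19 at Mpo one of -0.13.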

How the data were processed

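The members, gene lists and tests were chosen with earlier results of these data known. Per the labels' protocols, libraries were made by Omni-ATAC-seq with a Nextera kit. The deposited table holds raw read counts for 1 common set of peaks in mm9. Per the submitters' processing notes the tools were Bowtie2, Trim Galore, FastQC, Picard, SAMtools and MACS2 (no versions). The merging of peaks, the read counter and any shift of cut sites were not found in the sources used here. Calling peaks on the compared libraries can favour sites open in either group.

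Peaks were filtered with edgeR's filterByExpr (minimum count 10, minimum total 15), which kept 94.2% of counts, and scaled with TMM. Old and young were compared over all 73164 tested peaks with edgeR 4.0.16 in R 4.3.3 (glmQLFit, robust, glmQLFTest; group as the only term); the SE is the log2 fold change divided by the root of F. CPM of untested members used the same scaling. Locus sums took all member peaks and were fitted with the sums of all other peaks over windows of 100000 bases, 16772 rows in all. Named peaks were every called member, the strongest of each locus and, where none was called, the member with the smallest p; a few others were named after their values were seen. No 2 libraries agreed within sampling noise (lowest chi-square per peak 1.19). The fits were tested on simulated data. Alternatives used DESeq2 1.42.0 and limma 3.58.1, other scalings and filters, a replicate block, and each library left out. Gene models and sequence of mm9 were not used here.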

Additional observations from a re-analysis of the deposited data

Results flagged for a closer look

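Among 44 groups of 4 values screened (the locus sums and the named peaks, old and young), 1 had a library far from the other 3, where chance gives about 1 in 20. At the Irf8 locus old replicate 2 had a summed level of 126 CPM, and the other old libraries had 120 to 121 CPM. The gap was small beside the young range of 121 to 131 CPM.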

How the results depend on the processing

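The sums of Spi1, Cebpa, Gfi1, Irf8 and Cd33 kept their side of the threshold under every alternative run. Cebpa changed sign without young replicate 1 (-0.014). With each library left out, the log2 fold change ran from 0.02 to 0.10 at Spi1, -0.014 to 0.028 at Cebpa, -0.49 to -0.41 at Gfi1, -0.10 to -0.05 at Irf8, -2.19 to -1.04 at Mpo, -0.38 to -0.20 at Csf1r and -2.58 to -2.16 at Cd33. Mpo passed with total counts (-1.31), DESeq2's test (-1.34), limma voom (-1.65), without old replicate 4 (-2.19) and with overlapping peaks counted in (-1.75). Csf1r passed with DESeq2 size factors (-0.30), with total counts (-0.29), without old replicate 4 (-0.37) and without young replicate 2 (-0.38). Left-out libraries gave 1 to 6 members higher and 3 to 8 lower. DESeq2's test gave 1 higher and 4 lower, 10% of members against 14.0% of all peaks. No count filter gave 7 higher and 9 lower, 21.9% against 16.1%. A mean count of at least 50 gave 0 higher (edgeR; 2 of 16 tested members at an unadjusted p below 0.05) and 3 lower, 18.8% against 21.7%. None of the 4 members called higher with the usual filter reached that mean count, so this fit could not call them. The filters changed which peaks were tested; the cause of the other shifts was not tested.

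The strongest Cebpa peak, near 0, changed sign with total counts (-0.015), loess (-0.047) and a mean count of at least 50 (-0.034), and ran from -0.020 to 0.053 with a library left out. The strongest Csf1r peak ran from -0.16 to 0.0041, above 0 only without old replicate 2.

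The replicate numbers are shared between groups, but correlations of same-numbered libraries, as deviations from their group means, were -0.014 to 0.18, and old replicates 1 and 3 correlated best with another number. With the replicate block 6 members were higher and 7 lower, 26% against 22.9% of all tested peaks. The peaks gained were chr8:123238836-123239707 (edgeR adjusted p = 0.0203), chr7:35865611-35866603 (0.0214) and chr11:87603594-87604014 (log2 fold change -1.10, 0.0157), and the sums of Mpo (-1.46, edgeR adjusted p = 0.00112) and Csf1r (-0.30, edgeR adjusted p = 0.00664) passed. Weak members could not be tested: 23 of 73 were under the count filter, as were 53707 of all 126871 peaks.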
